A study of Mus musculus with 6 samples.

Results

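The genes examined here are the 9 members of the *Kcnq1* imprinted domain on distal mouse chromosome 7, namely *Kcnq1*, *Kcnq1ot1*, *Cdkn1c*, *Phlda2*, *Ascl2*, *Slc22a18*, *Cd81*, *Tssc4*, and *Nap1l4*. CpG sites were taken as members where the deposited table gave one of these genes as the closest gene, at any distance, and where all 6 samples had at least 10 reads. This left 188 CpG sites of 681804 commonly covered sites (0.0276%). With at least 5 reads, 364 of 971165 sites were members, and 687 of the 2268080 listed sites had a member as the closest gene.

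DNA methylation was measured by RRBS (reduced representation bisulfite sequencing) in 3 Space and 3 Ground replicates of GS cells, which are spermatogonia grown in culture with the self-renewal factors GDNF and FGF2 on mouse embryonic fibroblasts. Both groups carried the same genotype, DBA/Tg14(act-EGFP-OsbY01), in which an EGFP transgene under an actin promoter marks the cells. Both groups were frozen for 6 months, the Space GS cells in the ISS and the Ground GS cells on Earth, and both were thawed and cultured before DNA was harvested. No unfrozen cells are part of this comparison. The study calls the RRBS replicates experiments, and the labels do not say whether separate cultures stand behind them. If they do not, the p-values measure only the spread between these samples, which may then be technical.

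Imprinted genes are expressed from 1 parental allele, and the choice is written as DNA methylation in the germline. In this domain the mark lies over the promoter of *Kcnq1ot1*, a long non-coding RNA transcribed antisense to *Kcnq1* from within one of its introns. The oocyte methylates this promoter and the male germline leaves it unmethylated. In somatic tissues the paternal copy is therefore transcribed, and the RNA silences neighboring genes in cis, so that *Kcnq1*, *Cdkn1c*, *Phlda2*, *Slc22a18*, and, in the placenta, *Ascl2*, *Cd81*, and *Tssc4* are read mainly from the maternal chromosome. Cells of the male germline carry neither the maternal mark nor the somatic one.

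The sequences below show which CpG sites were read at the places the results turn on. RRBS fragments are cut at CCGG, so a promoter without this motif yields few or no reads. All are written 5′ to 3′ on the strand of the gene. The deposited positions are on mm39 and the reference sequences on GRCm38, so the sites were placed by their distance from the transcription start site (TSS). At that distance GRCm38 had a CG for 364 of 364 member sites with at least 5 reads. In the first 3 sequences, capitals mark the CpG sites that reached 10 reads in each sample. The *Kcnq1ot1* stretch comes from the GENCODE M21 transcript (GRCm38, chr7:143295395-143295621, minus strand) and holds the 13 sites read 938 to 1143 bp downstream of its TSS.
Kcnq1ot1 island: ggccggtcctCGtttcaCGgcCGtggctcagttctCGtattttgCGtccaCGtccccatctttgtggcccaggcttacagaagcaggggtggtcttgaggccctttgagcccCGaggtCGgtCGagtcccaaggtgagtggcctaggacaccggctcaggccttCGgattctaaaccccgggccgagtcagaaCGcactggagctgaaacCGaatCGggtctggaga
The upstream windows of *Ascl2* and *Cd81* come from RefSeq (GRCm38.p6, chr7:142969265-142969514, minus strand, and chr7:143052500-143052738, plus strand) and end where the table places the TSS.
Ascl2 upstream: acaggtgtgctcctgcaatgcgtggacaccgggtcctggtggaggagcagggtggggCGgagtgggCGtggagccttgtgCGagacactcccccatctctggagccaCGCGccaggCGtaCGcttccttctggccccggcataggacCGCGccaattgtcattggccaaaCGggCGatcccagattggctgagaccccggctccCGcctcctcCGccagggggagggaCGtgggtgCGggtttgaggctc
Cd81 upstream: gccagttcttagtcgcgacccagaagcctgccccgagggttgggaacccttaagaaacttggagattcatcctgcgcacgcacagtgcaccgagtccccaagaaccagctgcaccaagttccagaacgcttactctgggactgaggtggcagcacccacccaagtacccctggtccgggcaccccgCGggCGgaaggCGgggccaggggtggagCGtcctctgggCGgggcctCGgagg
The *Kcnq1ot1* promoter window (RefSeq, GRCm38.p6, chr7:143296548-143296797, minus strand) is shown because the deposited table lists 0 of its CpG sites, at any coverage, and the next listed site lies 3133 bp upstream of the TSS. Its capitals mark CCAAT instead.
Kcnq1ot1 promoter: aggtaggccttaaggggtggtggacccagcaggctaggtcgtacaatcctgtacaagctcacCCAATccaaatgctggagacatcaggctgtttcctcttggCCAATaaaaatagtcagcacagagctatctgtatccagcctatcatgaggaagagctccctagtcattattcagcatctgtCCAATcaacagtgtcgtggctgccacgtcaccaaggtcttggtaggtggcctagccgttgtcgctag

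Of the 9 genes, 6 had a promoter sequence in the RefSeq table, and *Kcnq1*, *Cdkn1c*, and *Nap1l4* did not. The *Kcnq1ot1* window of 300 bases around the TSS, from 250 before to 50 after it, had 9 CG and 0 CCGG, while the windows of *Ascl2*, *Cd81*, and *Tssc4* each had 23 CG with 3, 2, and 4 CCGG. Over all 32851 promoter windows of the same length, 52.8% held CCGG. CCAAT, counted on both strands, occurred 3 times in the *Kcnq1ot1* window and 3 times in that of *Ascl2*, and 37.4% of all windows held it. GGGCGG, on either strand, occurred 3 times in the *Cd81* window, 2 times in that of *Phlda2*, and 1 time in that of *Ascl2*, against 35.7% of all windows with at least 1. TATAAA, also on either strand, was found 1 time each in the *Phlda2* and *Cd81* windows and is held by 13.6% of all windows. CCCTC was counted 2 times each in *Phlda2*, *Slc22a18*, and *Cd81* and 1 time in *Ascl2*, against 66.0% of all windows. These matches describe the letters only.

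Methylation in the domain followed the distance from the TSS. Of the 188 sites, 172 had a mean level under 10%, 5 had a level of 10% to 90%, and 11 had a level over 90%. All 135 sites within 1 kb of a TSS were under 10%, with a mean level of 1.77% ± 0.422 in Space and 2.05% ± 0.732 in Ground GS cells (mean ± SD, n = 3 for each group, as in all values written so below). Between 1 and 5 kb, 36 of 39 sites were under 10%. Beyond 5 kb, 10 of 14 sites were over 90%, and the mean level was 75.6% ± 0.516 in Space and 74.7% ± 1.67 in Ground GS cells. In the whole table, the share of sites under 10% was 98.7% within 1 kb, 75.8% between 1 and 5 kb, and 38.2% beyond. The share over 90% beyond 5 kb was 42.3% in the whole table and 71.4% among the members. Of the 10 member sites behind the latter, 7 had *Kcnq1ot1* as the closest gene.

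**Figure D1:**
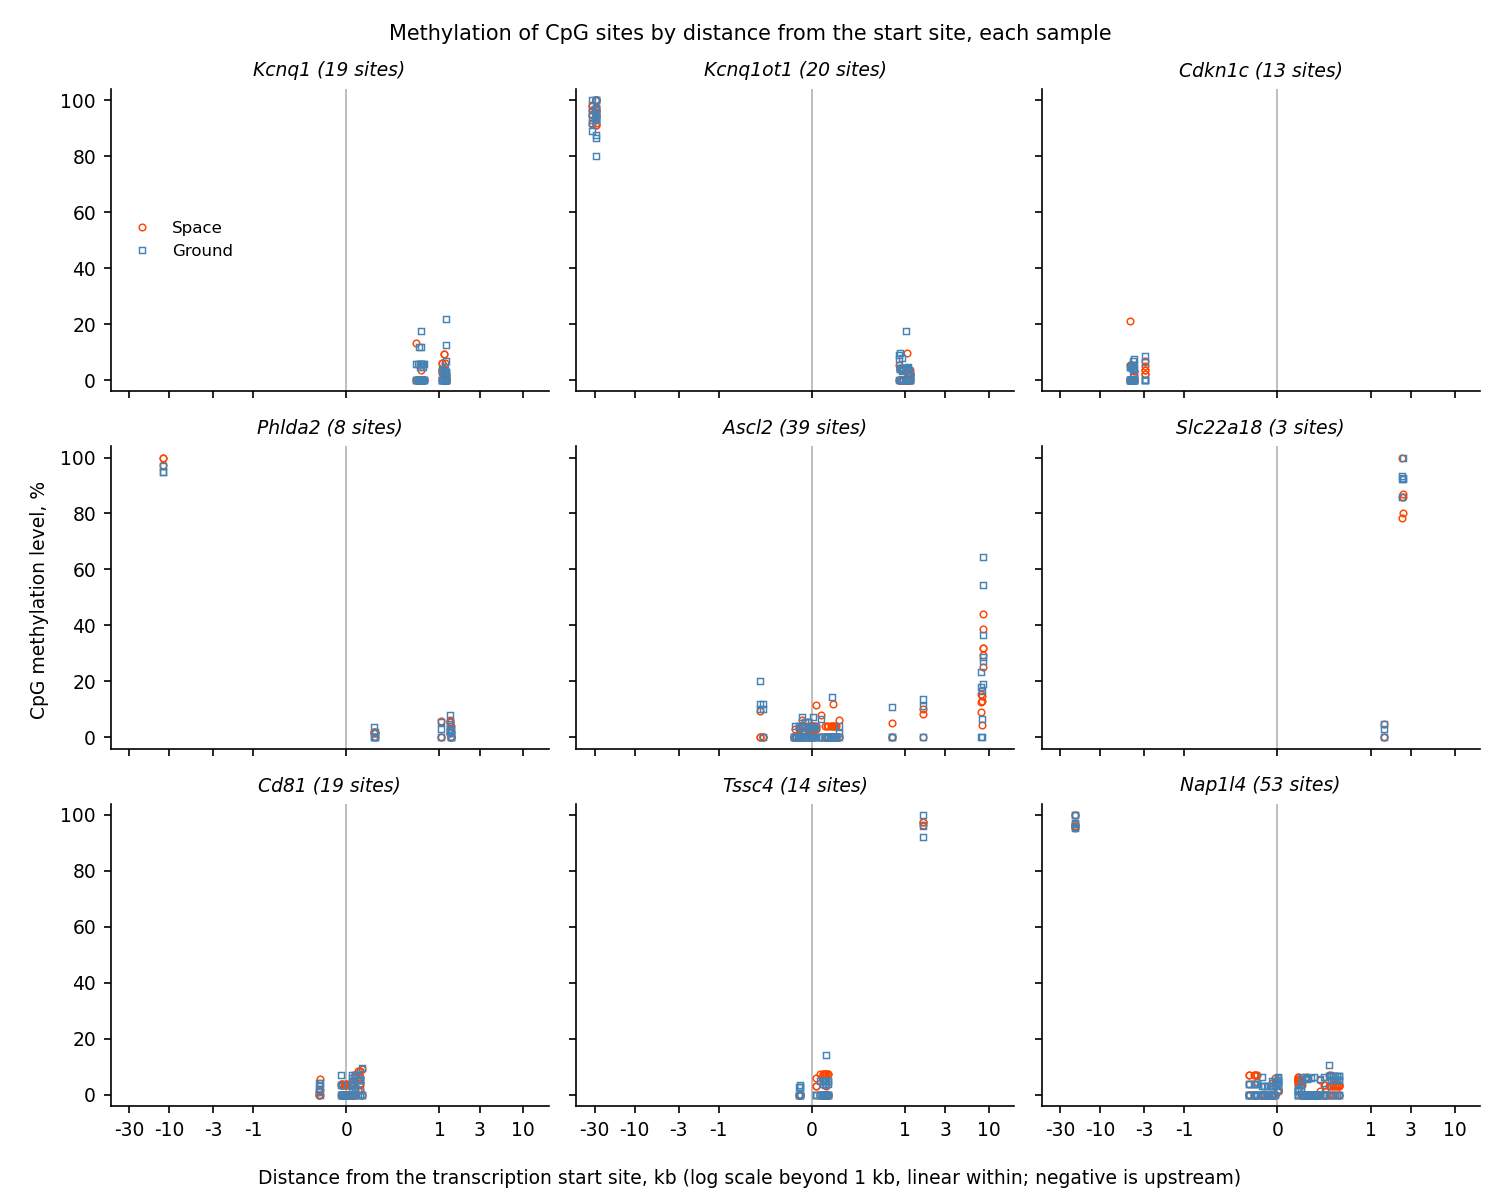
Methylation level (%) of each of the 188 CpG sites against its distance from the TSS of its gene (kb, linear within 1 kb and logarithmic beyond), with 1 point per sample, circles for Space and squares for Ground. Sites near the TSS lie at the bottom in both groups, and the high levels of *Kcnq1ot1*, *Phlda2*, *Slc22a18*, *Tssc4*, and *Nap1l4* lie away from it.

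By the GENCODE M21 annotation at the same distances, 53 member sites were intergenic, 51 lay in an intron, 23 in a coding exon, and 61 in another exon. The closest gene was not always the gene that holds the site. The 7 *Kcnq1ot1* sites that lie 28604 to 32090 bp upstream of its TSS are in an intron of *Kcnq1*, the *Phlda2* site 11832 bp upstream is in an intron of *Nap1l4*, and the 2 *Nap1l4* sites 19889 and 19940 bp upstream are in a coding exon of *Cars*, which encodes a cysteinyl-tRNA synthetase. Each of these sites was over 90% methylated.

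*Kcnq1ot1* (ENSMUSG00000101609, TSS at mm39 chr7:142850286, minus strand) holds the imprinting control element of the domain. Its 13 sites at 142849142 to 142849347, inside the transcript, had summed levels of 2.95%, 0.248%, and 1.94% in Space replicates 1 to 3 and 3.60%, 3.46%, and 1.22% in Ground replicates 1 to 3. The groups overlapped, with means of 1.71% ± 1.36 and 2.76% ± 1.34, and all 6 samples were under 4%. The difference was -1.05 percentage points (SE 1.10, exact permutation p = 0.5, two-sided, for which 3 against 3 samples cannot go below 0.1). In the quasi-binomial test over all 49134 regions, a test of methylated and total reads with the spread between replicates shared over regions through limma, its adjusted p was 0.946.

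The deepest site of the island, 1092 bp downstream of the TSS, had 50 to 71 reads per sample. Methylated reads numbered 1 of 71, 1 of 50, and 2 of 71 in the Space replicates and 3 of 66, 1 of 55, and 1 of 65 in the Ground replicates. The highest level, 4.55% in Ground replicate 1, had an exact 95% binomial interval of 0.947% to 12.7%, and the interval of Space replicate 1 ran from 0.0357% to 7.60%. Such intervals cover counting error only, since reads of the same molecule may have been counted more than once. All 6 intervals overlapped.

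The *Kcnq1ot1* promoter window just upstream of the TSS had 0 listed sites and was not measured. Only 6 of the island sites, from 938 to 978 bp inside the transcript, lay within 1 kb, the span taken here as promoter. Their summed level was 4.05% in Space replicate 1 and 0% in Space replicates 2 and 3, against 4.76%, 5.07%, and 2.29% in Ground replicates 1 to 3. Space replicate 1 lay within the range of the Ground GS cells and the other two Space replicates lay below it. The difference was -2.69 percentage points (SE 1.61, exact permutation p = 0.2, adjusted p = 0.947 in the quasi-binomial test over 14361 promoters).

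At neighboring sites of equal coverage, the same number of methylated reads recurred in some samples and not in others. In the stretch of 5 *Kcnq1ot1* sites from 972 to 1050 bp, Space replicate 1 had 1 methylated read of 26 at every site, Ground replicate 2 had 1 of 25 at every site, and Space replicate 2 had 0 of 29. Ground replicate 1 had 1 methylated read at 4 of these sites and 4 at the other. Space replicate 3 had 2 of 21 at 1046 bp and 0 at the other sites, and Ground replicate 3 had 0 of 31. Among the 15 groups of at least 3 member sites with equal coverage, and counting each sample once, 90 combinations had a level under 50%. Of these 90, 23 had no methylated read, 34 had methylated reads at some of the sites, and 33 (36.7%) had at least 1 at every site. The table does not tell which reads are the same molecule. Bisulfite conversion was not assessed, and an unconverted read counts as methylated, so levels this low may include such reads.

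Upstream of *Kcnq1ot1* the pattern was the opposite. The 3 sites 28604 to 28651 bp upstream had levels of 95.8%, 94.7%, and 100% in the Space replicates and 97.1%, 93.2%, and 88.1% in the Ground replicates. This was the largest difference among the 13 member regions tested, at 4.06 percentage points (SE 3.06, exact permutation p = 0.3, adjusted p = 0.968), and the groups overlapped. The sites at 28767 and 28782 bp had 96.7% ± 3.26 and 95.5% ± 4.55, and those at 32084 and 32090 bp had 95.6% ± 0.857 and 94.3% ± 1.99, in Space and Ground GS cells. High levels were not confined to the upstream side. With a minimum of 5 reads, the site 9795 bp downstream, inside the transcript, had 80.8% ± 20.5 in Space and 79.8% ± 17.8 in Ground GS cells. The site at 9865 bp had 100% in each Space replicate and 83.3%, 62.5%, and 100% in the Ground replicates. Both had as few as 7 reads in a sample.

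**Figure D2:**
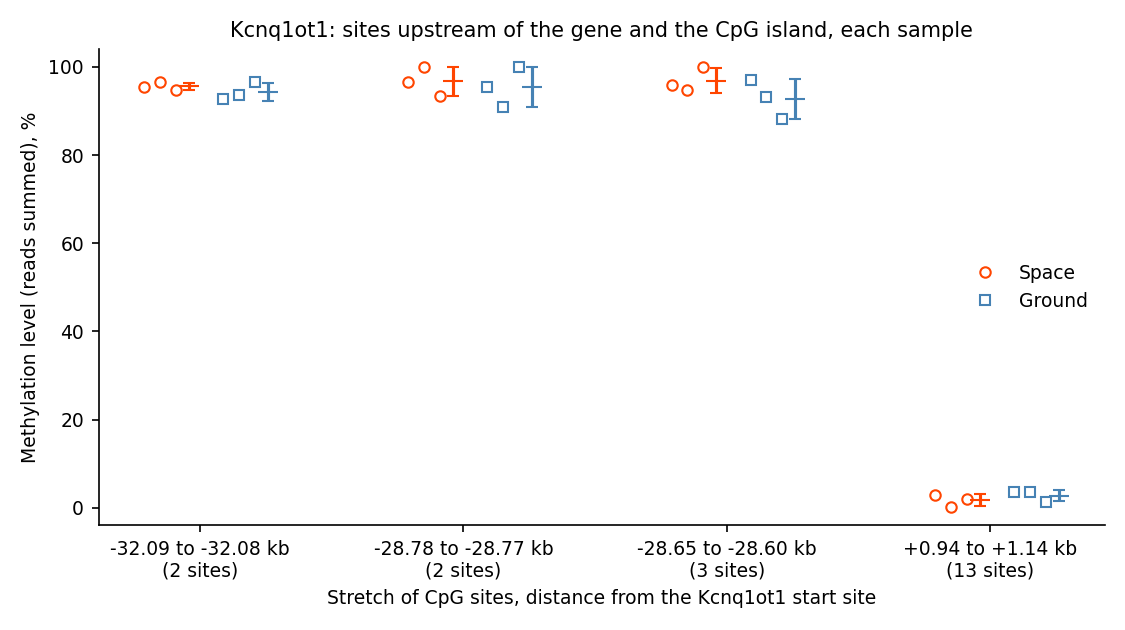
Methylation level (%, reads summed) of the 4 stretches of CpG sites assigned to *Kcnq1ot1*, by distance from its TSS, with circles for the 3 Space and squares for the 3 Ground samples and bars for mean ± SD. The 3 upstream stretches lie between 88.1% and 100% in every sample, and the island of 13 sites lies between 0.248% and 3.60%.

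The level over all 20 *Kcnq1ot1* sites therefore mixes both kinds of site. It was 35.7% ± 3.77 in Space and 32.1% ± 8.45 in Ground GS cells, a difference of 3.59 points (SE 5.34, adjusted p = 0.982). When every site had the same weight in place of every read, the difference was -0.206 points, so the share of reads that fell on the upstream sites moves this value.

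*Kcnq1* (ENSMUSG00000009545, TSS at chr7:142660099, plus strand) encodes a voltage-gated potassium channel subunit. Its 10 sites from 753 to 830 bp downstream, in an intron, had the second largest difference of the 13 regions tested. The levels were 0.357%, 0%, and 1.33% in the Space replicates and 7.65%, 0.909%, and 1.18% in the Ground replicates, so that Ground replicate 1 stood above the other 5 samples and the groups overlapped. The means were 0.563% ± 0.690 and 3.24% ± 3.82, with a difference of -2.68 points (SE 2.24, exact permutation p = 0.3, adjusted p = 0.873). Without Ground replicate 1 the difference was -0.479 points. These 10 sites had equal coverage within each sample, 15 to 28 reads, and Ground replicate 1 had 1 to 3 methylated reads of 17 at each of them. Fisher's exact test on reads pooled over replicates, which counts each read at every site and ignores the spread between replicates, gave an adjusted p of 0.0131 for this region. The 9 sites from 1078 to 1206 bp, in a coding exon, were at 2.40% ± 1.76 and 2.73% ± 2.56.

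*Cdkn1c* (ENSMUSG00000037664, TSS at chr7:143014787, minus strand) encodes the cyclin-dependent kinase inhibitor p57, and its maternal expression restrains growth. With at least 10 reads, its 13 sites all lay 2911 to 4411 bp upstream, in intergenic sequence. The 6 sites from 4305 to 4411 bp had levels of 0.877%, 0%, and 7.89% in the Space replicates and 0%, 4.55%, and 0% in the Ground replicates. A single sample of each group was raised and the groups overlapped. The difference, the third largest of the regions tested, was 1.41 points (SE 2.92, exact permutation p = 0.7, adjusted p = 0.959) and turned to -1.08 without Space replicate 3. The other 7 sites had regional means of 1.08% to 3.94%. The promoter appeared only with a minimum of 5 reads, where 23 sites within 1 kb, with at least 8 reads in every sample, averaged 1.03% ± 0.459 and 0.889% ± 0.809.

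*Phlda2* (ENSMUSG00000010760, TSS at chr7:143056887, minus strand) limits growth of the placenta. It kept 8 of its 92 listed sites. The 7 sites from 294 to 1376 bp downstream had regional means of 0.962% to 2.80%, whereas the site 11832 bp upstream had 97.3%, 100%, and 100% in the Space replicates and 96.9%, 94.7%, and 94.7% in the Ground replicates. At that site every Space replicate was above every Ground replicate, by 3.65 points on average (SE 1.15, exact permutation p = 0.1, the smallest possible). Methylated reads were 36 of 37, 24 of 24, and 28 of 28 in the Space replicates. In the Ground replicates they were 31 of 32, 18 of 19, and 18 of 19, so the separation rests on single reads. With a minimum of 5 reads, 41 sites within 1 kb averaged 0.426% ± 0.249 and 0.583% ± 0.723. A site 1066 bp upstream then entered, with 88.5%, 73.7%, and 82.1% in the Space replicates and 84.0%, 35.3%, and 50% in the Ground replicates. The groups overlapped there, since Ground replicate 1 was higher than 2 of the 3 Space replicates, and Ground replicate 3 had 8 reads.

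*Ascl2* (ENSMUSG00000009248, TSS at chr7:142523001, minus strand), a basic helix-loop-helix factor needed for the trophoblast, had 39 sites. Its CpG island, 31 sites from 193 bp upstream to 293 bp downstream, had 1.58%, 2.08%, and 3.25% in the Space replicates and 0.715%, 1.81%, and 1.64% in the Ground replicates. The groups overlapped, and the difference was 0.913 points (SE 0.601, adjusted p = 0.893). The only intermediate levels near this gene lay in intergenic sequence downstream. There the site at 8409 bp had 44.1%, 31.8%, and 38.9% in the Space replicates and 64.3%, 36.5%, and 54.5% in the Ground replicates, with 28 to 52 reads. It had the largest difference of the 188 sites, -13.5 points, and the groups overlapped. The neighboring site at 8451 bp, with equal coverage in every sample, had 29.4%, 31.8%, and 25% against 28.6%, 19.2%, and 27.3%. The site at 8124 bp had 9.09%, 15.4%, and 12.5% in the Space replicates and 0%, 23.5%, and 18.2% in the Ground replicates, so that the Ground replicates lay on both sides of the Space replicates. The site at 8251 bp was at 10.8% ± 5.49 and 7.71% ± 8.40.

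A pair of *Ascl2* sites 519 and 553 bp upstream, singled out after their values were seen, had the largest difference among the member regions, those of 1 or 2 sites included, although single sites such as that at 8409 bp differed more. Summed over both sites, the levels were 0%, 0%, and 4.76% in the Space replicates and 10%, 10%, and 11.8% in the Ground replicates, and the groups did not overlap. The difference was -9.00 points (SE 1.69, exact permutation p = 0.1, the smallest possible). It rests on 10 to 21 reads per site and sample, with 0 to 2 methylated, and with fewer than 3 sites the pair was not among the regions tested.

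*Slc22a18* (ENSMUSG00000000154, TSS at chr7:143027473, plus strand), an organic cation transporter-like protein, kept 3 sites. The site at 1440 bp was at 1.54% ± 2.66 and 2.54% ± 2.40. The pair at 2399 and 2401 bp was methylated, with 82.6%, 90%, and 85.7% in the Space replicates and 92.3%, 96.7%, and 89.3% in the Ground replicates. Only Space replicate 2 reached into the range of the Ground GS cells, and the difference was -6.65 points (SE 3.03, exact permutation p = 0.2). With a minimum of 5 reads, 4 more sites from 2225 to 2289 bp joined this methylated stretch at mean levels of 73.3% to 91.9% over the 6 samples, all of them with higher means in Space GS cells.

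*Cd81* (ENSMUSG00000037706, TSS at chr7:142606476, plus strand), a tetraspanin of the cell surface, was read only near its TSS. The 17 sites from 52 bp upstream to 169 bp downstream had 2.64%, 4.72%, and 2.29% in the Space replicates and 3.64%, 2.58%, and 2.12% in the Ground replicates. The difference was 0.436 points (SE 0.882, adjusted p = 0.972), and the groups overlapped. *Tssc4* (ENSMUSG00000045752, TSS at chr7:142622986, plus strand), which overlaps *Trpm5*, had 10 sites from 48 to 177 bp at 2.88% ± 3.11 and 1.86% ± 2.37, and a single methylated site in its coding exon, at 1617 bp, with 97.0% ± 0.662 and 96.0% ± 3.95. With 5 reads, the sites from 193 to 973 bp were also under 10%, so that the step from low to high methylation lay inside this gene, between 973 and 1617 bp. Farther downstream, the sites at 1745 and 1786 bp were at 95.8% and 95.2%, and the site at 1826 bp was at 61.9%, over the 6 samples.

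*Nap1l4* (ENSMUSG00000059119, TSS at chr7:143102843, minus strand), a nucleosome assembly protein at the edge of the domain, had the most sites, 53. The 32 sites from 216 to 664 bp were at 2.22% ± 0.559 and 1.67% ± 0.869, and the 19 sites from 308 bp upstream to 10 bp downstream were at 1.49% ± 0.935 and 2.48% ± 0.880. These regional differences, 0.556 (SE 0.596) and -0.990 (SE 0.741) points, had opposite signs and adjusted p-values of 0.943 and 0.911. Of the sites whose groups did not overlap, *Nap1l4* had 3 higher in Space GS cells, at 216, 223, and 226 bp, and 4 lower, at 1, 7, 10, and 591 bp. Over all commonly covered sites such shares were 2.66% higher and 2.33% lower. The sites at 223 and 226 bp had equal coverage in every sample, and the coverage at 1, 7, and 10 bp differed by at most 1 read, so neither set need be independent. At 10 bp, for example, 1 read was methylated in each Space replicate (of 67, 58, and 68) and 3, 3, and 4 in the Ground replicates (of 68, 57, and 64).

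The order of the promoters by level could not be resolved. Averaged over the 6 samples, *Kcnq1* (1.90%), *Nap1l4* (1.97%), *Ascl2* (2.01%), *Tssc4* (2.03%), *Kcnq1ot1* (2.70%), and *Cd81* (2.83%) followed each other, and none of the 5 steps between neighbors exceeded its spread over samples (exact sign-flip permutation test, two-sided, adjusted p = 1 for each). *Phlda2*, with 2 sites, was at 1.23%. Over all sites, *Cdkn1c* (2.27%), *Kcnq1* (2.30%), *Cd81* (2.83%), *Ascl2* (4.90%), *Nap1l4* (5.90%), *Phlda2* (8.45%), *Tssc4* (10.3%), *Kcnq1ot1* (33.9%), and *Slc22a18* (38.3%) followed. The step from *Tssc4* to *Kcnq1ot1*, 23.6 points, and that from *Cd81* to *Ascl2*, 2.08 points, had the same sign in 6 of 6 samples. Their adjusted p was 0.125 by the same exact permutation test (raw p = 0.0313, the smallest that 6 samples allow). The order was taken from the same 6 samples, which favors a shared sign in advance. All-site levels also mix near and distant sites. *Kcnq1ot1* had 7 sites over 90% and *Tssc4* 1, and within 1 kb *Cd81* (2.83%) stood above *Ascl2* (2.01%).

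**Figure D3:**
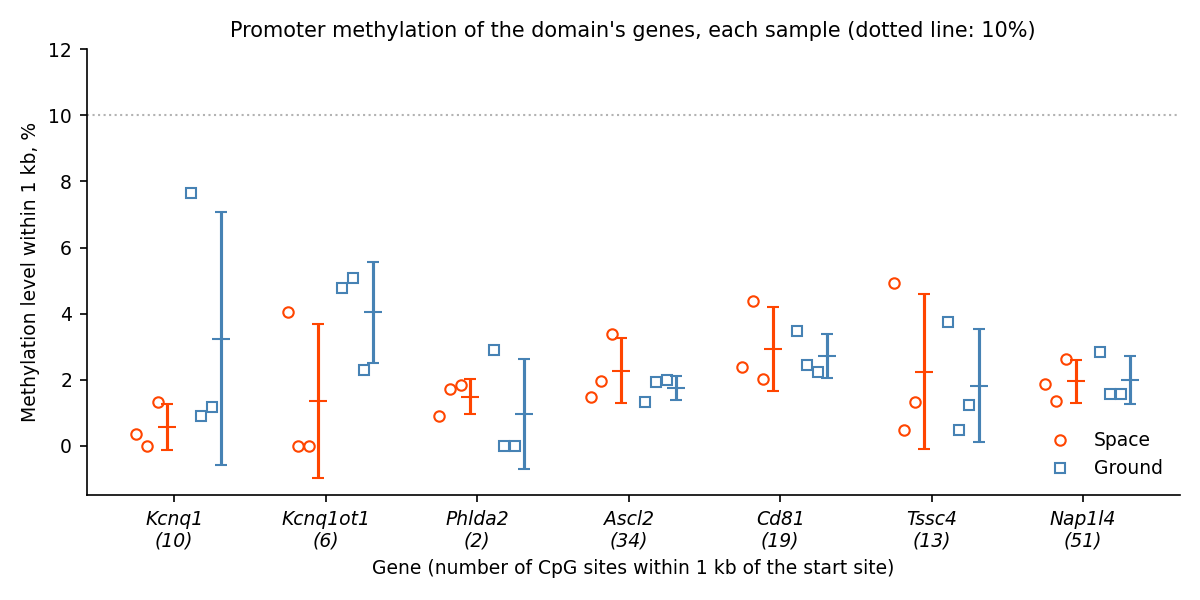
Methylation level (%, reads summed over CpG sites within 1 kb of the TSS) for the 7 genes with such sites, with the number of sites under each name, circles for the 3 Space and squares for the 3 Ground samples, and bars for mean ± SD. The highest point is Ground replicate 1 of *Kcnq1* at 7.65%, and the groups overlap for every gene.

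Over the whole domain, the mean level of the 188 sites was 8.61%, 8.57%, and 9.19% in Space replicates 1 to 3 and 9.82%, 8.86%, and 8.34% in Ground replicates 1 to 3. The Space GS cells lay within the range of the Ground GS cells. Means of 8.79% ± 0.348 and 9.01% ± 0.752 differed by -0.218 points (exact permutation p = 0.7, two-sided). The sign of so small a difference was not stable, and it was 0.190 without Ground replicate 1.

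At single sites, 0 members were more than 20 points higher in Space GS cells, against 0.113% of all commonly covered sites, and 0 were more than 20 points lower, against 0.0826%. The median absolute difference was 1.33 points over the member sites and 1.45 over all sites. Of the 188 sites, 90 had a higher mean in Space GS cells, 83 a lower mean, and 15 the same. The 3 Space and 3 Ground levels did not overlap at 7 sites that were higher in Space GS cells (3.72%, against 2.66% of all sites) and at 8 that were lower (4.26%, against 2.33%). Neighboring sites with equal coverage are counted separately in both shares.

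**Figure D4:**
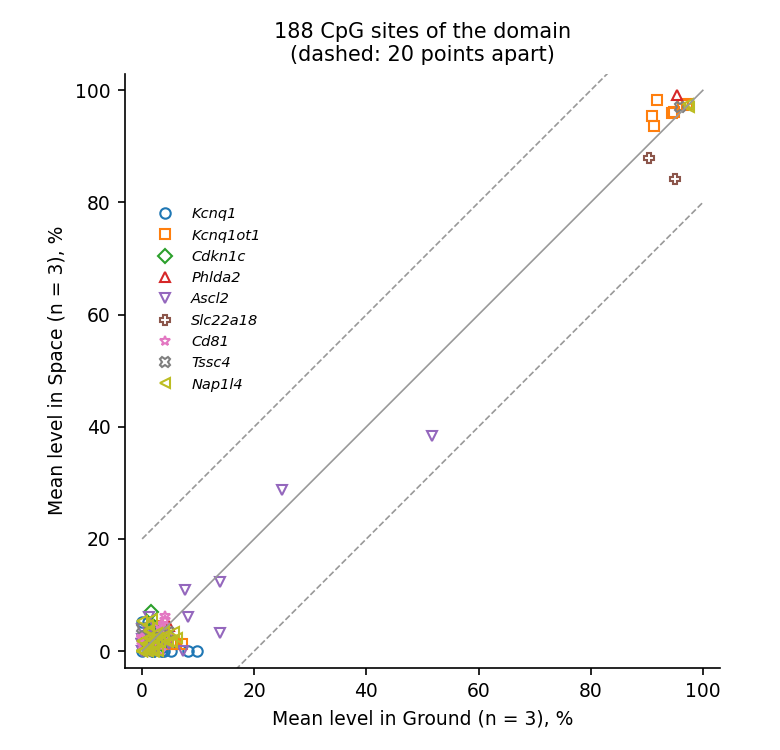
Mean methylation level (%) in Space GS cells against that in Ground GS cells for the 188 CpG sites, 1 symbol per gene, with the line of equality and dashed lines 20 points away. All sites lie between the dashed lines, and the symbols in the middle belong to *Ascl2*.

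No member passed the threshold of 0.05 in the quasi-binomial test with Benjamini-Hochberg adjustment over the whole table. Of the members, 11 sites, 9 genes, 6 promoters, and 13 regions could be tested, and 0 were called in each case. The background was also 0, with 0% called among 92042 sites, 23360 genes, 14361 promoters, and 49134 regions. At an unadjusted p under 0.05 there were 0 member sites (background 5.61%), 0 genes (5.26%), 0 promoters (5.31%), and 0 regions (5.65%). The quasi-likelihood test of edgeR also called 0 member genes, promoters, and regions, with 1 region at an unadjusted p under 0.05, the 3 *Tssc4* sites 123 to 142 bp upstream (0% in each Space replicate, 1.30% ± 1.40 in Ground GS cells). The SEs of the regional differences under 10% methylation ran from 0.596 to 2.92 points in the regions tested.

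The promoters of the other listed genes were also low, from 0.399% in *Osbpl5* to 4.03% in *Tnfrsf22* over the 6 samples, as were 98.7% of all commonly covered sites within 1 kb of a TSS. Their levels were not tested against those of the members. Of 13 listed genes with a promoter in a region methylated in the oocyte, as *Kcnq1ot1* has, 10 were measured within 1 kb of the TSS. All 10 were under 10%, and 0 were called. Whether the sites read lie in that region or at another promoter of the same gene was not checked. All 6 measured of 15 listed genes around the domain were also under 10%, as were 8 measured of 10 germ cell genes whose promoters are methylated in most somatic cells, with 0 called in both lists. The part of feeder fibroblasts in these DNA samples was not tested. The *Kcnq1ot1* sites within 1 kb, all inside its transcript, were at 2.70% over 6 samples. Nearest to this among the listed genes were the promoter levels of *Peg3* (2.85%), *Nadsyn1* (2.54%), and *Grb10* (2.44%). *Peg3* is a paternally expressed zinc finger gene, *Nadsyn1* an NAD synthetase gene, and *Grb10* a growth factor receptor adaptor gene.

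Median coverage was 21 to 28 reads per sample over the member sites and 27 to 32 over all commonly covered sites, and a single read moves the level of a site with 10 reads by 10 points. Ground replicate 1, with the lowest coverage of the members, had the highest mean level over the 188 sites. It was also the highest over all commonly covered sites, at 20.33% against 19.73% to 20.29% in the other samples. Its rank was thus shared with the whole table, but its lead was larger over the member sites, at 9.82% against 8.34% to 9.19% in the other samples. The part of coverage in these levels was not tested.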

How the data were processed

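RRBS libraries of 3 Space and 3 Ground replicates were prepared from genomic DNA (DNeasy Blood and Tissue Kit, Zymo-Seq RRBS Library Kit). The submitters' processing notes name Trim Galore, Bismark 0.24.2, methylKit, and mm39, without their settings. Whether both strands of a CpG site were merged and whether duplicated reads were removed is not given in the sources used here, and both would change coverage and level. The authors deposited the coverage of each CpG site per sample as a count of reads, its methylation level as a percent, and the closest TSS and gene. The columns were assigned to samples by the serial number in each sample's description.

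The number of methylated reads is the product of both columns (within 0.000266 of a whole read). Sites needed at least 10 reads in all 6 samples, and a minimum of 5 or 20 was also tried. A level is the percent of methylated reads, for genes, promoters (within 1000 bp of the TSS), and regions (sites at most 100 bp apart) over summed reads. Those with at least 3 sites, and sites with a mean level of 5% to 95%, were tested with a quasi-binomial test whose dispersion was moderated by limma 3.58.1 (R 4.3.3 with the data.table package, version 1.17.8), with Benjamini-Hochberg adjustment over all features of the kind and a threshold of 0.05. It was also run on simulated data, with shifts planted only in features at intermediate levels. The tested member promoters and regions lie at lower or higher levels, so the simulation does not cover them. edgeR 4.0.16 on methylated and unmethylated counts, Fisher's exact test on pooled reads, other windows, a replicate block, and leaving out each replicate were alternatives. Single values were compared with exact permutation tests (SciPy was used only for binomial intervals, version 1.17.1).

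Summed reads were 28535973 to 33743845 per sample, where a read counts at each site it covers. With reads taken as independent, the chi-square per site was 1.35 to 1.46 for 2 samples of the same group. For samples of different groups it was also 1.35 to 1.46. Each replicate was counted as its own sample, but these values do not tell whether the replicates are separate cultures.

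The 9 genes and all lists were chosen with earlier results of these data known. Each gene is named with its values; regions at 10% to 90% and, of the 13 tested, the 3 regions with the largest difference are given in full, and of the other listed genes the 3 nearest to the promoter level of *Kcnq1ot1*. Single sites were to be named if they differed by more than 20 points or had an unadjusted p under 0.05, and since 0 did, those described were chosen after their values were seen. Annotation came from GENCODE M21 by distance from the TSS, because the reference is GRCm38, and no position was converted. Python 3.11.15, pandas 2.3.3, and matplotlib 3.10.9 were used for sequences and figures.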

Additional observations from a re-analysis of the deposited data

How the results depend on the processing

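Under every alternative except 1, 0 member genes, promoters, and regions were called by an adjusted p under 0.05. Fisher's exact test on pooled reads called 1 promoter and 1 region, the same 10 *Kcnq1* sites (difference of pooled levels -2.54 points, adjusted p = 0.00786 and 0.0131). With the replicate number as a replicate block, 0 members were called, with a lowest adjusted p of 0.864 for genes, 0.671 for promoters, and 0.521 for regions. Same-numbered Space and Ground samples carry consecutive serial numbers in their descriptions, but no label says that they share a culture, batch, or day. The block is therefore given only here. Deviations of same-numbered samples from their group means correlated at 0.0438, 0.0220, and 0.00988 across sites, against a mean of -0.0126 for different numbers. Counting error at single sites can hide a shared deviation, so these values do not decide whether the samples are paired. With the block, the domain mean differed by -0.218 points (p = 0.75, exact sign-flip permutation test over same-numbered pairs, two-sided). So few pairs allow only a few p-values, and this p is not on the scale of the unpaired test.

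Of 114 values of single genes, promoters, and regions under other settings, 89.5% kept their sign and their side of the threshold. Of the rest, 10 changed sign, and 2 passed the threshold, those of Fisher's test above. The edgeR test and the replicate block reuse the differences of the main test, and some settings kept the same sites. Those signs could not change, so the share does not measure stability. When 1 replicate was left out, 83.3% of 114 kept both and 19 changed sign. The domain mean difference was 0.0178 points with a minimum of 5 reads, 0.00274 with 20 reads, 0.385 with all reads summed, and 0.518 with genes weighted equally, and ranged from -0.551 to 0.190 when 1 replicate was left out. Sites more than 20 points higher in Space GS cells numbered 1 with a minimum of 5 reads, the *Phlda2* site 1066 bp upstream. Sites more than 20 points lower numbered 1 without Ground replicate 2, the *Ascl2* site at 8409 bp, and 0 to 1 over the left-out replicates. With a minimum of 5 reads, the difference over all sites was 1.45 points for *Slc22a18*, and that of the promoter -0.789 for *Tssc4*. With a minimum of 20 reads, all-site differences were 0.0989 for *Ascl2*, -0.221 for *Cdkn1c*, and -0.205 for *Cd81*, and promoter differences -0.205 for *Cd81* and 0.361 for *Nap1l4*. Within 500 bp, the *Nap1l4* promoter differed by 0.00759. With equal weight for each site, differences were -0.206 for *Kcnq1ot1* and -0.343 for *Nap1l4*.

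Leaving out 1 replicate moved the all-site differences over -0.500 to 0.252 for *Ascl2*, -2.12 to 0.540 for *Kcnq1*, -0.526 to 1.23 for *Cdkn1c*, -0.530 to 0.654 for *Cd81*, -0.742 to 3.64 for *Tssc4*, -0.414 to 0.949 for *Nap1l4*, and -0.819 to 7.61 for *Kcnq1ot1*. Promoter differences then ranged from -0.0362 to 0.917 for *Ascl2*, -0.530 to 0.654 for *Cd81*, -0.908 to 1.39 for *Tssc4*, and -0.382 to 0.373 for *Nap1l4*, and the *Cdkn1c* region 4305 to 4411 bp upstream from -1.08 to 2.92. The *Kcnq1ot1* island kept a negative difference (-1.82 to -0.315) and its upstream region a positive one (1.72 to 6.20). Causes of these changes were not tested. Only 188 of 687 listed member sites reached 10 reads in each sample, and the part of depth in the SEs was not tested.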
